A study of Mus musculus with 6 samples.

Results

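The genes of DNA replication and S phase were followed in mouse myeloid cells with and without induced PU.1. The list named 48 genes of origin licensing, the replicative helicase, the polymerases, nucleotide supply, repair and chromatin. A gene was a member where the array had a transcript cluster, the probe set of 1 gene locus, whose annotation names that gene alone. This left 47 of the 48, among 22180 genes tested; the cluster of Rfc4, a subunit of the clamp loader, is shared with Eif4a2 and was not used. For Pole, Fen1 and Rrm2, which have more than 1 cluster, the brightest one was taken.

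The cells came from fetal liver and were grown in GM-CSF at 1 ng/ml, a growth factor for granulocytes and macrophages. The 3 uninduced samples had no doxycycline and the 3 induced samples had it at 1000 ng/ml for 72 hours, which the labels equate with PU.1 expression; PU.1 is the myeloid transcription factor encoded by Spi1. Each sample was hybridised to 1 Affymetrix Mouse Gene 2.0 ST array. The labels describe neither the construct, nor the genotype or strain, nor whether samples A, B and C were separate cultures, so p-values measure the spread between these samples only, which may be technical. No sample had doxycycline without the inducible gene, so drug and PU.1 effects cannot be told apart. Fewer cycling cells and less replication mRNA per cell cannot be told apart either. The title of the series ties PU.1 to exit from the cell cycle and to lower E2F1, and the comparison asks what the genes of S phase do under those conditions.

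In G1 phase the origin recognition complex, with Cdc6 and Cdt1, loads the Mcm2 to Mcm7 ring onto DNA, a step called licensing. At the start of S phase Cdc45 and the GINS complex turn the ring into an active helicase, and polymerases held by the clamp Pcna copy the opened strands. Many of these genes are classical targets of E2F factors and are switched on together as cells enter S phase; myeloid progenitors lose this expression when they mature into cells that no longer divide.

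The labelled cell type was checked first. Of 15 myeloid marker genes 12 were above background on all 6 arrays, where background is the 95th percentile of 1394 olfactory and vomeronasal receptor genes on the same array. Ptprc, the pan-leukocyte antigen, and Csf1r, the M-CSF receptor, were above it on none, and Mpo, the myeloperoxidase gene, on the 3 induced arrays. The summed myeloid markers ran from 15.25 to 15.31 on the log2 scale in uninduced and from 15.36 to 15.46 in induced samples, and 4 of the 15 (Ptprc, Lyz2, Mpo and Cd68) rose by the test used below. None of the 4 erythroid, 6 lymphoid and 6 stromal markers found was above background on any array, and of 7 hepatocyte markers Apoa1 alone was, on 4 arrays. The summed hepatocyte markers ran from 9.37 to 9.72 uninduced and from 9.73 to 9.87 induced, the stromal ones from 8.95 to 9.01 and from 9.09 to 9.28. No single hepatocyte or stromal marker passed the test. The median log2 change, induced minus uninduced, was 0.292 for hepatocyte, 0.249 for stromal, 0.129 for erythroid and 0.121 for lymphoid markers. For the 1394 receptor genes that set the background it was 0.276. The part of these markers in the results was not tested.

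Of the 6 arrays, 2 stood apart from their own group. The replication genes had a median log2 value of 9.46 in uninduced B against 8.96 in each of the other 2 uninduced samples, and of 9.09 in induced A against 8.52 and 8.63 in induced B and C. Over all transcript clusters the closest 2 arrays of different groups correlated at r = 0.991, above the highest value within a group, 0.988. Uninduced B was the highest of the 6 arrays for 46 of the 47 genes. Induced A lay within the uninduced range for 36 of the 47 and below it for 11. The arrays also differed in their overall spread of values: the interquartile range over all transcript clusters was 2.62 in uninduced B, 2.40, 2.44 and 2.37 in uninduced A, uninduced C and induced A, and 2.17 and 2.21 in induced B and C. The background percentile ran the other way, from 7.05 in uninduced B to 7.99 in induced B. The replication genes move with this spread. The median after cyclic loess, which evens out such differences between arrays, is therefore given for each complex. The spread was narrowest in induced B and C, so it is partly confounded with induction. Cyclic loess would also even out a fall of bright genes with induction, and the cause of the spread was not tested.

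No replication gene passed the test between induced and uninduced samples. All 47 lay below 0 as deposited (induced minus uninduced, log2), from -0.06 for Gins3 to -0.63 for Msh6, with a median of -0.37, a level 1.30-fold lower. Adjusted p-values, from the moderated test of limma with Benjamini-Hochberg adjustment over the 22180 genes, ran from 0.111 to 0.823. With that test 1.05% of all genes were called lower and 0.374% higher. At an unadjusted p under 0.05, 23 of the 47 were lower (48.9%), against 16.9% of all genes, and 0 were higher. Of the 47, 40 lay in the 3 brightest of 10 bins of genes by mean level. In those 3 bins 42.7% of all genes were lower at that p. There 89.7% of genes lay below 0 as deposited, against 44% of all genes tested. The 3 induced values lay below the 3 uninduced ones for 9 of the 47 (19.1%), against 15.4% of all genes. Among genes of the 3 brightest bins this share was 35.5%, above that of the members.

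The precision of 3 arrays per group bounds these differences. Standard errors of the 47 changes ran from 0.13 to 0.25 on the log2 scale. The 95% interval, not adjusted for the number of genes, included 0 for 24 of the 47 and stayed above a log2 change of -1 for 41 of them. Intervals of the other 6, which reached below -1, belonged to Cdc6, Rfc3, Pola2, Pole2, Msh6 and Hells.

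**Figure D1:**
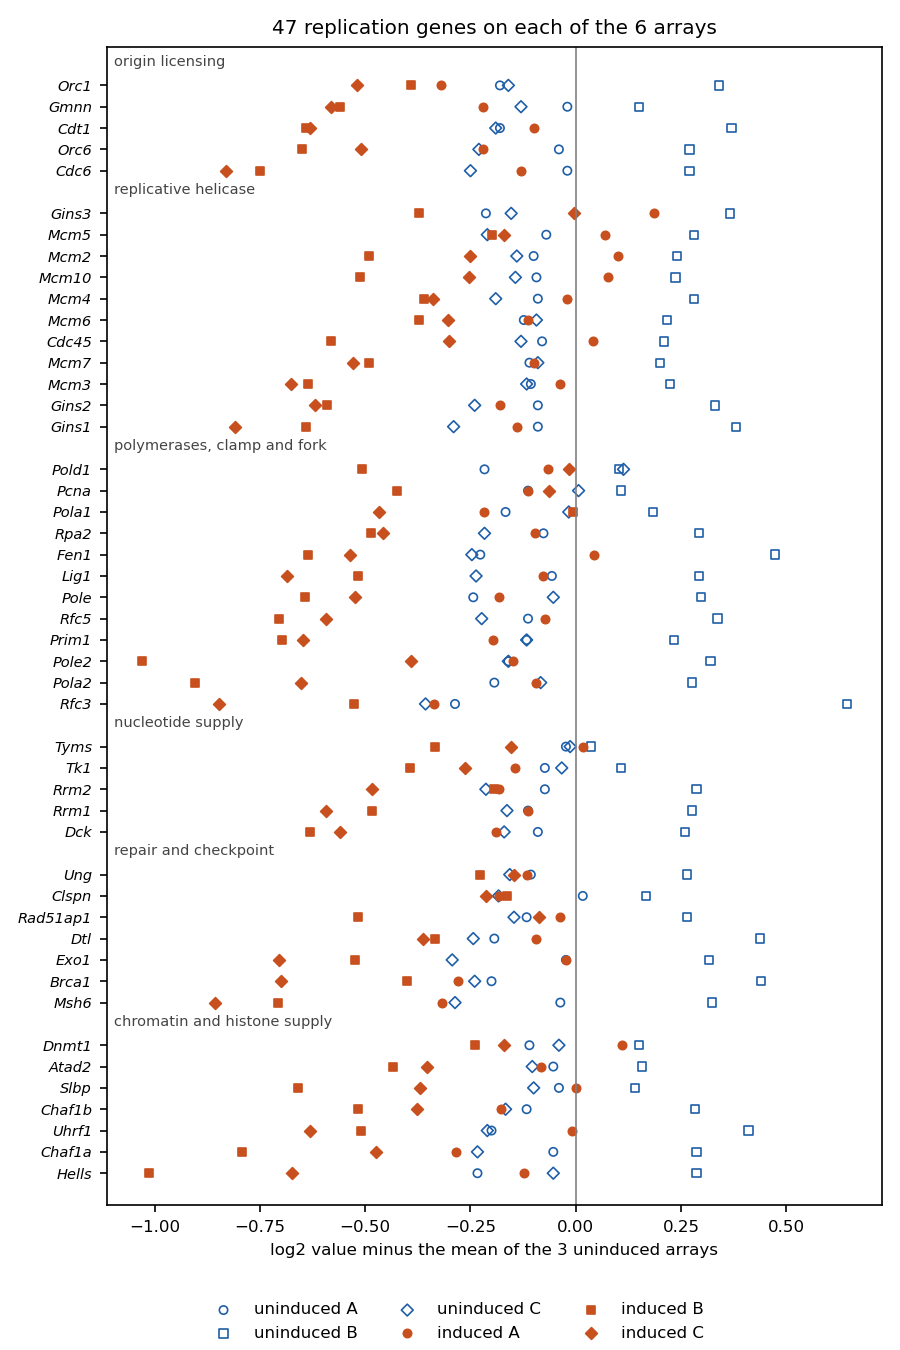
The 47 replication genes on each array, as the log2 value minus the mean of the 3 uninduced arrays (x axis), with genes on the y axis grouped by complex; open blue symbols are uninduced and filled orange symbols induced samples. Uninduced B (open squares) is the highest array for 46 genes, and induced A (filled circles) lies among the uninduced arrays for 36. Filled squares and diamonds are induced B and C.

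What the members share beyond their role was looked for in their promoters, taken from RefSeq (GRCm38.p6) as the 250 bases before and 50 after each annotated start. The E2F consensus was searched as TTTCCCGC, TTTCGCGC, TTTGCCGC and TTTGGCGC on both strands. A promoter was in the table for 40 of the 47 genes, and 19 of the 40 (47.5%) held at least 1 of these spellings. This compares with 3.26% of 16990 tested genes and 2.6% of all 27025 genes in the table. The CCAAT box (CCAAT) was found in 65.0% of the 40 genes and 41.6% of tested genes, and the Sp1 letters GGGCGG in 70.0% and 49.5%. A PU.1 spelling, AGAGGAAGT, was in 0 of the 40 and in 1.21% of tested genes. A match is a description of letters and not a bound site. The 4 members below were chosen because they had the smallest unadjusted p among those with an E2F spelling; capitals mark that spelling, and each sequence is written 5′ to 3′ on the gene's strand.
Msh6 (chr17:87975054-87975083, plus strand, bases 5 to 34 after the start): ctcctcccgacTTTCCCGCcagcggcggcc
Cdc6 (chr11:98908001-98908150, plus strand, the 150 bases before the start): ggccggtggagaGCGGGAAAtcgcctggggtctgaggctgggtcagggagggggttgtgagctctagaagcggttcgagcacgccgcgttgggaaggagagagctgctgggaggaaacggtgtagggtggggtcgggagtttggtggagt
Hells (chr19:38930840-38930989, plus strand, the 150 bases before the start): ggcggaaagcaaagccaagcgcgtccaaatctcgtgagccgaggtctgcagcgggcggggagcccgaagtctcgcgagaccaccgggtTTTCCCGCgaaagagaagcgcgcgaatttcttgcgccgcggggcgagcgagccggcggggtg
Orc1 (chr4:108579304-108579453, plus strand, the 150 bases before the start): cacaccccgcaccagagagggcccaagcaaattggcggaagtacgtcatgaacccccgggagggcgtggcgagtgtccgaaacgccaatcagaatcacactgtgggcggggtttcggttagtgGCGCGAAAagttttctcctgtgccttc
Cdc6 and Orc1 carry the spelling on the opposite strand, Hells and Msh6 on the gene's own. Mcm6 held 3 spellings, and Mcm3, Mcm5, Mcm7, Rfc3 and Dnmt1 held 2 each; those of Mcm5, and 2 of the 3 of Mcm6, overlap on opposite strands. The 19 genes with a spelling had a median change of -0.38 and the 21 without one -0.35, so presence of these letters did not separate the members by change.

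Origin licensing was the complex with the lowest median, at -0.46 over its 5 genes (-0.24 after cyclic loess). As deposited its changes lay close together, from -0.41 to -0.57, and all 5 had an unadjusted p under 0.05. That p was reached in the lower direction by 16.9% of all genes and by 42.7% of those in the brightest level bins. After cyclic loess the changes spread from -0.09 to -0.44. The lowest of these were those of Orc1 and Gmnn, which were not above background on induced B and C. Cdc6, the ATPase that brings the helicase ring to origins (chromosome 11, 98907709 to 98923942), had uninduced log2 values of 8.86, 9.15 and 8.63, in the order A, B, C kept throughout, and induced values of 8.75, 8.13 and 8.05. Induced B and C lay below every uninduced value, while induced A lay inside the uninduced range, so the groups overlap. Its difference was -0.57 (SE 0.20, limma adjusted p = 0.133), with a ratio of uninduced to induced of 1.48 (95% interval 1.09 to 2.02).

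Orc6, the smallest subunit of the origin recognition complex (chromosome 8, 85299632 to 85308279), had values of 9.55, 9.86 and 9.36 uninduced and of 9.37, 8.94 and 9.08 induced. The groups just overlap, since induced A lies a little above uninduced C. The change was -0.46 (SE 0.17, limma adjusted p = 0.137). Orc1, the subunit whose level follows the cell cycle, was at 7.24, 7.76 and 7.26 against 7.10, 7.03 and 6.90, with induced values below uninduced ones and a change of -0.41, but it was above background on 1 array only. Gmnn encodes geminin, the inhibitor of Cdt1 that prevents a second round of licensing. It was at 7.93, 8.10 and 7.82 uninduced and at 7.73, 7.39 and 7.37 induced, with no overlap and a change of -0.46 (SE 0.15, limma adjusted p = 0.121). Its target Cdt1, the other loading factor, was at -0.46 as well.

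The helicase had a median of -0.26 over 11 genes, and its 6 ring subunits Mcm2 to Mcm7 one of -0.25; after cyclic loess these were 0.08 and 0.09. Without uninduced B the helicase median was -0.148. In none of the 11 were the groups apart. Mcm2 (chromosome 6, 88883474 to 88898780) had values of 10.02, 10.36 and 9.98 uninduced and of 10.22, 9.63 and 9.87 induced; induced A was the second highest of the 6. Its change was -0.22 (SE 0.18, limma adjusted p = 0.38), less than the distance between uninduced B and the other uninduced samples, and after cyclic loess it was 0.14. Within the ring Mcm3 and Mcm7 had the lowest changes, at -0.45 (SE 0.19) and -0.37 (SE 0.16), both with an unadjusted p under 0.05. Mcm4 and Mcm6 were at -0.24 and -0.26, and Mcm5 was at -0.10 (SE 0.16), with uninduced values of 11.05, 11.40 and 10.91 and induced ones of 11.19, 10.92 and 10.95; after cyclic loess it was at 0.19. Those subunits form 1 ring in equal numbers, but a difference between their changes was not tested.

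The GINS complex joins Cdc45 and the ring into the active helicase. Gins1 (chromosome 2, 150909556 to 150931280) was at 7.59, 8.06 and 7.39 uninduced and at 7.54, 7.04 and 6.87 induced, a change of -0.53 (SE 0.21, limma adjusted p = 0.152). Gins2 was at 9.31, 9.73 and 9.16 against 9.22, 8.81 and 8.78, a change of -0.46 (SE 0.18, limma adjusted p = 0.147). In both, induced B and C were the lowest of the 6 arrays and induced A lay among the uninduced ones. Gins4, not a member and named here after its values were seen, was at 10.66, 10.97 and 10.50 against 10.46, 10.06 and 9.89, without overlap, a change of -0.57 (SE 0.18, limma adjusted p = 0.118). Gins3 had uninduced values of 8.69, 9.27 and 8.75 and induced values of 9.09, 8.53 and 8.90, a change of -0.06 (SE 0.19, limma adjusted p = 0.823). Its induced samples lie on both sides of uninduced A and C, and its 95% interval ran from -0.49 to 0.37. A difference between the GINS subunits was not tested. Mcm10 and Cdc45, which act with GINS when the helicase fires, were at -0.23 (SE 0.17) and -0.28 (SE 0.18); in both, induced A lay above the uninduced mean.

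The polymerases, the clamp and other fork proteins had a median of -0.43 over 12 genes (-0.10 after cyclic loess, -0.26 without uninduced B). Of the 12, 7 had an unadjusted p under 0.05. That p was reached in the lower direction by 16.9% of all genes and by 42.7% of those in the brightest level bins. Rfc3, a clamp loader subunit (chromosome 5, 151642817 to 151651208), had the lowest change, at -0.57 (SE 0.25, limma adjusted p = 0.169). Its uninduced values of 7.22, 8.15 and 7.15 were spread widely by uninduced B, and its induced values were 7.17, 6.98 and 6.66. Only 1 array put it above background. Rfc5, another subunit of that loader, was at -0.46 (SE 0.20).

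Polymerase alpha with primase starts each new strand. Its accessory subunit gene Pola2 was at 9.08, 9.55 and 9.19 uninduced and at 9.18, 8.37 and 8.62 induced, a change of -0.55 (SE 0.21, limma adjusted p = 0.142). The primase gene Prim1 was at 9.10, 9.45 and 9.10 against 9.02, 8.52 and 8.57, a change of -0.51 (SE 0.17, limma adjusted p = 0.124), and it was the 1 gene of this complex whose groups did not overlap. Pola1, the catalytic subunit of the same enzyme, was at -0.23 (SE 0.16): uninduced 8.69, 9.04 and 8.84, induced 8.64, 8.85 and 8.39. Here induced B sat above 2 of the uninduced samples, unlike in Pola2 and Prim1, where it was the lowest of the 6.

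The leading strand polymerase genes Pole and Pole2 were at -0.44 (SE 0.18) and -0.53 (SE 0.22). The dimmer cluster of Pole was at 0.17, and the mean of both clusters at -0.14. Pole2 was at 8.49, 8.97 and 8.49 uninduced and at 8.50, 7.62 and 8.26 induced, with induced B far below the other arrays. Pold1, the catalytic subunit of the lagging strand polymerase, was at 8.43, 8.75 and 8.76 uninduced and at 8.58, 8.14 and 8.63 induced, which gives -0.20 (SE 0.17, limma adjusted p = 0.402). Induced C and A lay between the uninduced values. Pcna (chromosome 2, 132249286 to 132253180) was at 11.76, 11.98 and 11.88 uninduced and at 11.76, 11.45 and 11.81 induced. Induced B was the low one, and the change of -0.20 (SE 0.14, limma adjusted p = 0.332) had a 95% interval from -0.51 to 0.12. Rpa2, of the single-strand binding protein, and Fen1, the flap nuclease of Okazaki fragments, were at -0.35 and -0.37 with unadjusted p over 0.05 (Fen1 at -0.16 with the mean of its 2 clusters), and the ligase gene Lig1 was at -0.42 (SE 0.19).

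Nucleotide supply had a median of -0.29 over 5 genes (0.07 after cyclic loess). Ribonucleotide reductase makes deoxynucleotides from a large subunit, Rrm1, and a small one made in S phase, Rrm2. Rrm1 (chromosome 7, 102441695 to 102469771) was at 11.17, 11.56 and 11.12 uninduced and at 11.17, 10.80 and 10.69 induced, a change of -0.40 (SE 0.17, limma adjusted p = 0.165). Rrm2 (chromosome 12, 24708254 to 24714146) was at 10.07, 10.43 and 9.93 against 9.96, 9.95 and 9.66, a change of -0.29 (SE 0.16, limma adjusted p = 0.238). Induced A equalled uninduced A in Rrm1 as rounded and lay inside the uninduced range in Rrm2.

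The salvage kinase gene Dck had values of 9.41, 9.76 and 9.33 uninduced and of 9.31, 8.87 and 8.94 induced. Its groups did not overlap, and the change was -0.46 (SE 0.17, limma adjusted p = 0.137). The thymidine kinase gene Tk1 did not overlap either, at 9.59, 9.77 and 9.63 against 9.52, 9.27 and 9.40, with a change of -0.26 (SE 0.13) that was 0.11 after cyclic loess. Tyms, thymidylate synthase, had uninduced values close together, at 8.66, 8.72 and 8.67, and its induced values of 8.70, 8.35 and 8.53 gave -0.16 (SE 0.13, limma adjusted p = 0.404).

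Repair and checkpoint genes had a median of -0.27 over 7, of -0.11 after cyclic loess and of -0.10 without uninduced B. Msh6, of DNA mismatch repair (chromosome 17, 87975050 to 87990892), had the lowest change of the 47. Its values of 7.53, 7.89 and 7.28 uninduced and of 7.25, 6.86 and 6.71 induced did not overlap, though by a small margin between uninduced C and induced A. The difference was -0.63 (SE 0.19, limma adjusted p = 0.111), a ratio of uninduced to induced of 1.54 (95% interval 1.16 to 2.06). Only 2 of the 6 arrays put Msh6 above background, so its induced level lies in the background range.

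Brca1, of homologous recombination, was at 8.40, 9.04 and 8.36 uninduced and at 8.32, 8.20 and 7.90 induced, a change of -0.46 (SE 0.20, limma adjusted p = 0.164). Uninduced B is far above the other 5, whose order still puts uninduced first. Ung, the uracil glycosylase gene, was at 7.41, 7.78 and 7.36 against 7.40, 7.29 and 7.37, so that apart from uninduced B the values lie close together, and the change was -0.16 (SE 0.145). The nuclease gene Exo1 was at -0.42 (SE 0.20). Clspn, the claspin gene of the replication checkpoint, was at -0.19, Rad51ap1 at -0.21 and Dtl, the receptor of the ligase that destroys Cdt1, at -0.27, each with an unadjusted p over 0.05.

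Chromatin genes had a median of -0.36 over 7, of 0.01 after cyclic loess and of -0.215 without uninduced B. Hells, a chromatin remodeller needed for DNA methylation (chromosome 19, 38930262 to 38970470), was at 8, 8.52 and 8.18 uninduced and at 8.11, 7.22 and 7.56 induced, with a change of -0.60 (SE 0.22, limma adjusted p = 0.138). Induced A sits inside the uninduced range and induced B and C well below it. The histone chaperone CAF-1, which places new nucleosomes behind the fork, is represented by Chaf1a and Chaf1b. Chaf1a was at 8.56, 8.90 and 8.38 against 8.33, 7.82 and 8.14, a change of -0.52 (SE 0.18, limma adjusted p = 0.127), and Chaf1b was at -0.36 (SE 0.16). In neither gene did the groups overlap.

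Dnmt1, the methyltransferase that copies DNA methylation after replication, had the smallest change here: 10.56, 10.82 and 10.63 uninduced, 10.78, 10.43 and 10.50 induced, a difference of -0.10 (SE 0.14, limma adjusted p = 0.601). Its partner Uhrf1, which finds hemimethylated DNA, was at -0.38 (SE 0.21). Slbp, the binding protein of histone mRNA, and Atad2, a bromodomain ATPase, were at -0.34 (SE 0.17) and -0.29 (SE 0.14).

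**Figure D2:**
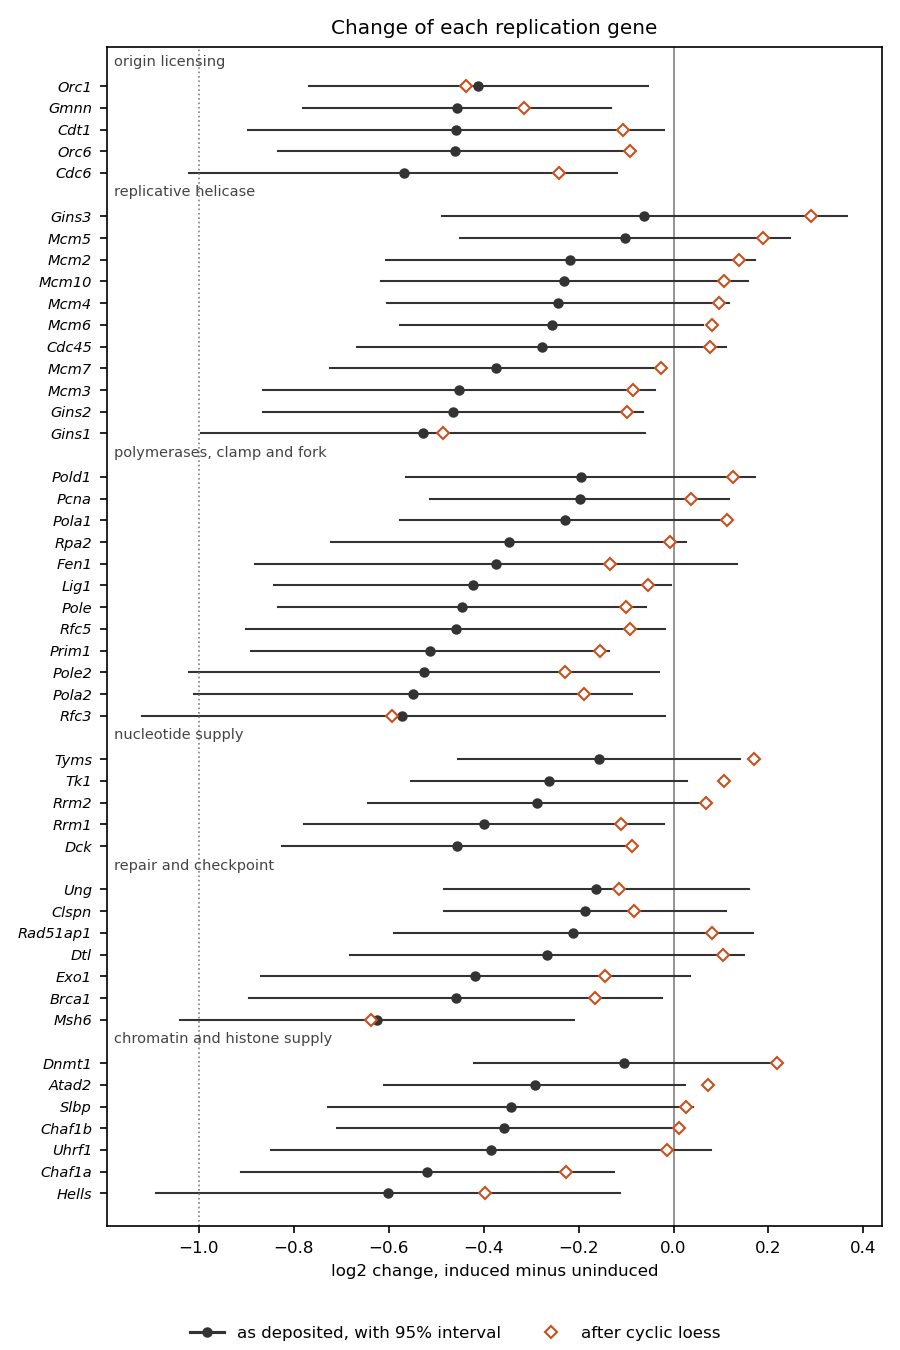
Log2 change of each replication gene, induced minus uninduced (x axis), with genes on the y axis by complex; filled circles and lines are values as deposited with the 95% interval (not adjusted for the number of genes), open diamonds the change after cyclic loess, and the dotted line marks -1. All 47 circles lie below 0, 41 intervals stay above -1, and 28 of the diamonds lie below 0.

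Array by array, the complexes moved together. Relative to the uninduced mean, the 47 genes had a median of -0.11 on the array of induced A, of -0.51 on that of B and of -0.48 on that of C. Uninduced B was 0.41 above the mean of the other 2 uninduced samples, with all 47 genes above 0, a difference between replicates as large as the one between groups. By complex the median ran from -0.02 (helicase) to -0.22 (licensing) for induced A, from -0.39 (nucleotide supply) to -0.64 (licensing) in induced B and from -0.30 (helicase) to -0.58 (licensing) in induced C. Licensing had the lowest median of the 6 complexes in each induced sample, and differences between complexes were not tested.

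**Figure D3:**
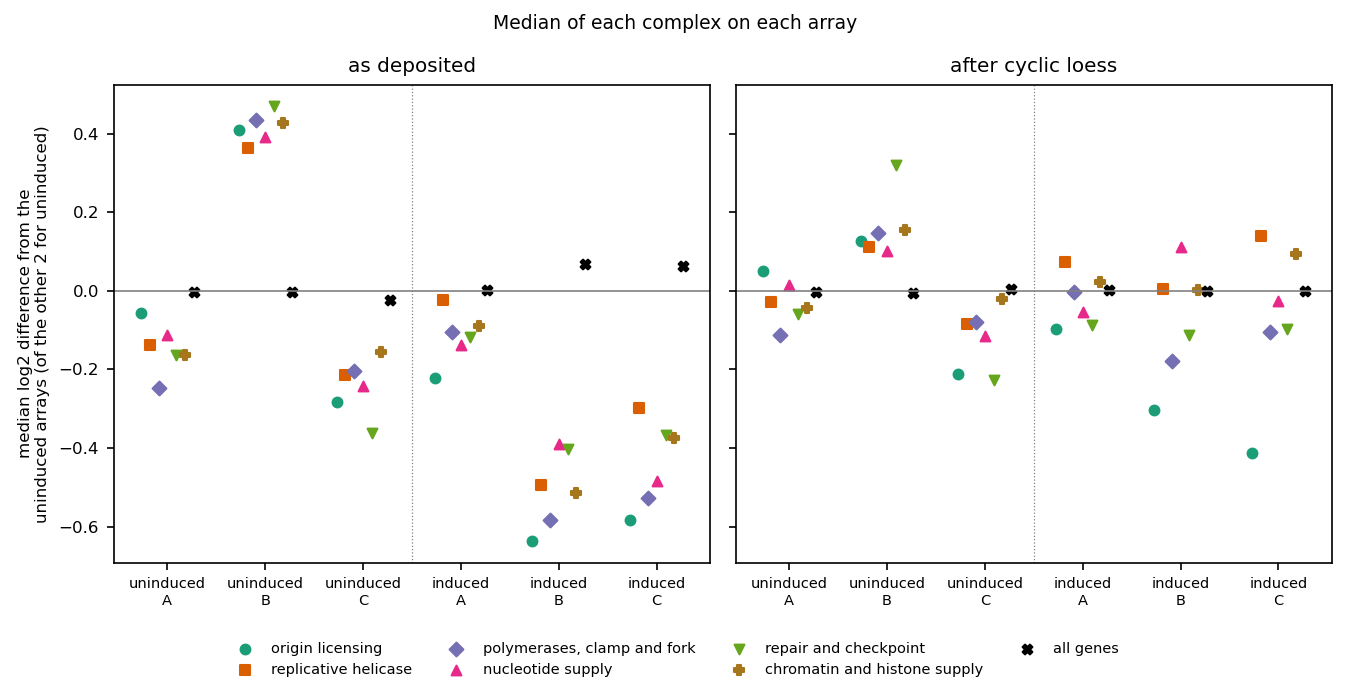
Median log2 difference of each complex on each array (x axis) from the mean of the uninduced arrays, or for an uninduced array from the mean of the other 2 (y axis), as deposited and after cyclic loess; colours and shapes mark the 6 complexes, black crosses all 22180 genes. As deposited the complexes move together from array to array, between 0.36 and 0.47 in uninduced B and between -0.64 and -0.39 in induced B. The crosses include dim genes, and in the 3 brightest of 10 level bins the medians of all genes in induced B ran from -0.50 to -0.42. After cyclic loess most complexes lie closer to 0, with licensing lowest in the 3 induced arrays.

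Over all genes the change depended on the level. Split by mean level into 10 bins of 2218 genes, all 47 members lay in the brighter 5 bins, 40 of them in the top 3. Over the 6654 genes of those top 3 bins the median change was -0.34 and 89.7% were below 0, against a median of 0.06 and 44% below 0 over all genes and a median of 0.18 over the dimmer 5 bins. An unadjusted p under 0.05 in the lower direction was found for 42.7% of those bright genes, and non-overlapping groups with induced lower for 35.5%, against 48.9% and 19.1% of the members. Among the members themselves the relation ran the other way: level and change correlated at r = 0.398 as deposited and 0.64 after cyclic loess over the 47 genes, which share the same 6 arrays, so the dimmer members had the lower changes. The 40 bright members had a median of -0.37, and 21 of the 40 lay below the median of their own bin. The other 7, Orc1, Gmnn, Gins1, Rfc3, Ung, Msh6 and Clspn, lay in the 2 bins between 6.93 and 7.90, where all genes had a median of 0.12 and -0.12, and all 7 lay below the median of their bin, with a median of -0.46.

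Cyclic loess, which removes a trend with level between arrays, put 28 of the 47 below 0, against 49.5% of all genes, with a median of -0.083. Of the 47, 36 lay within 0.2 of 0, and none passed the test (lowest limma adjusted p 0.155), where 0.532% of all genes were called lower and 0.374% higher. At an unadjusted p under 0.05, 6 genes were lower (12.8%, against 8.66% of all genes): Msh6 at -0.64, Rfc3 at -0.59, Gins1 at -0.49, Orc1 at -0.44, Hells at -0.40 and Gmnn at -0.31. None of those 6 was above background on induced B or C, the arrays with their lowest values. In the other direction 2 were higher, Gins3 at 0.29 and Dnmt1 at 0.22, against 8.89% of all genes. The order of the genes was largely kept, with a Spearman correlation of 0.861 between the changes before and after over the 47 genes, which share the same 6 arrays. As deposited the medians of all 6 complexes were below 0; after cyclic loess licensing had a median of -0.24, with 5 of 5 below 0, while the helicase was at 0.08 with 4 of 11 below 0, and nucleotide supply at 0.07 with 2 of 5.

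**Figure D4:**
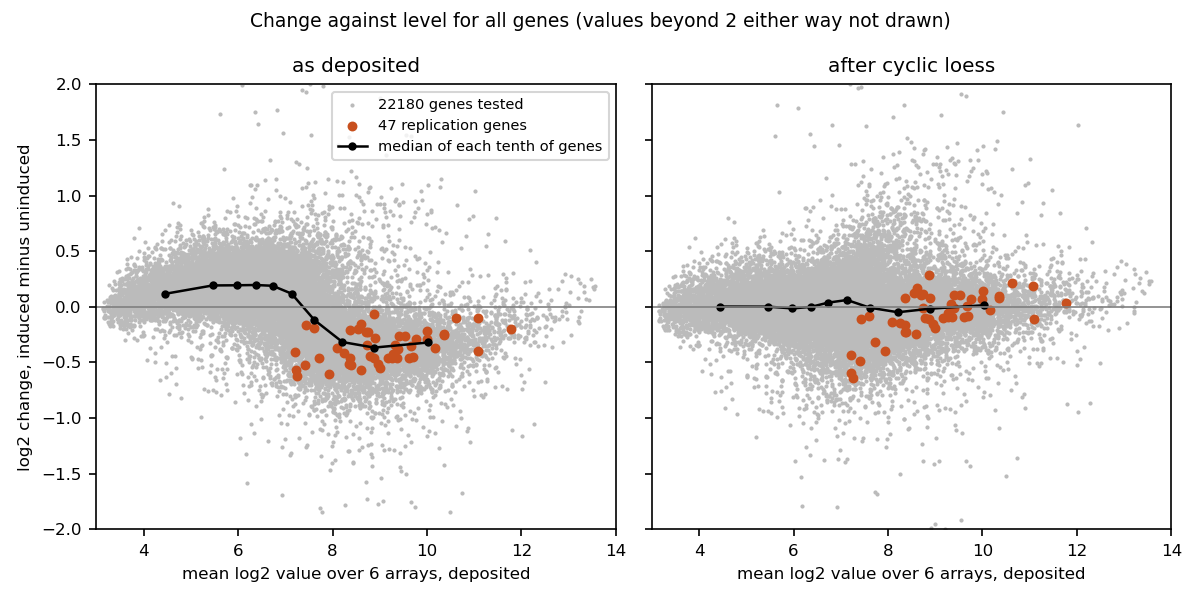
Log2 change, induced minus uninduced (y axis), against the mean log2 value over the 6 arrays (x axis) for the 22180 genes tested (grey), the 47 replication genes (orange) and the median of each of 10 level bins (black line), as deposited and after cyclic loess. As deposited the black line lies between 0.12 and 0.20 for the 6 dimmer bins and between -0.37 and -0.32 for the 3 brightest, where 40 of the replication genes lie.

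The calls depended on induced A. Without it, induced B and C against the 3 uninduced samples called 21 of the 47 lower (44.7%), where 15.9% of all genes were called lower. The 15.9% includes dim genes, whereas 40 of the 47 lay in the top 3 level bins. In those bins the medians of all genes ran from -0.50 to -0.42 in induced B and from -0.46 to -0.39 in induced C. The share called lower within those bins is not given here. The calls comprised 4 of 5 licensing genes, 6 of 12 polymerase and fork genes, 4 of 11 helicase genes, 3 of 7 chromatin genes, 2 of 5 of nucleotide supply and 2 of 7 of repair, with log2 changes from -0.84 (Hells, limma adjusted p = 0.0144) to -0.51 (Mcm7, limma adjusted p = 0.0334). Cdc6 was at -0.79 (limma adjusted p = 0.014) and Msh6 at -0.78 (limma adjusted p = 0.018). When those 5 arrays were put through cyclic loess, a setting added after the data were seen, 1 of the 47 was called lower, Msh6 at -0.80 (limma adjusted p = 0.0424), against 2.31% of all genes. Without uninduced B none was called, and the median was -0.24. At an unadjusted p under 0.05, 2 of the 47 were then lower, where 8.3% of all genes were.

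Other genes of the same machinery were looked at beyond the members. Of 74 listed, 64 had a transcript cluster of their own; 0 passed the test in either direction by limma, and at an unadjusted p under 0.05, 18 were lower and 1 higher, where 16.9% of all genes and 42.7% of those in the top 3 level bins were lower. Their median was -0.33 as deposited and -0.03 after cyclic loess, with 62 and 40 of the 64 below 0; as deposited 44% of all genes and 89.7% of those bright genes were below 0. The lowest measured value was that of Tipin, of the fork protection complex, at 8.64, 9.12 and 8.61 uninduced and 8.55, 7.16 and 7.79 induced, or -0.95 (SE 0.29, limma adjusted p = 0.114); it was not above background on induced B and C, so this size is uncertain. Rpa3, the smallest subunit of the single-strand binding protein, was at -0.76 (SE 0.26, limma adjusted p = 0.126), and Ppat, of purine synthesis, at -0.59 (SE 0.22, limma adjusted p = 0.142).

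Samhd1 ran the other way. It encodes the hydrolase that breaks down deoxynucleotides and keeps their pool low in myeloid cells that do not divide, the opposite of what ribonucleotide reductase does. Its values were 8.79, 9.02 and 8.58 uninduced and 10.05, 9.61 and 9.30 induced, with no overlap and induced A the highest. The difference was 0.86 (SE 0.20, limma adjusted p = 0.0619), a level 181% of the uninduced one, short of the threshold as deposited. Samhd1 passed the threshold after cyclic loess (1.23, limma adjusted p = 0.00453) and after quantile normalization (1.08, limma adjusted p = 0.0141), but not after median centring (0.72, limma adjusted p = 0.131). Rrm2b, the small reductase subunit of resting cells, was at 0.04 (SE 0.13, limma adjusted p = 0.806) and above background on 1 array.

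For the regulators named in the title, E2f1 was at 8.83, 9.23 and 8.81 uninduced and at 8.77, 8.60 and 8.50 induced, a change of -0.33 (SE 0.15, limma adjusted p = 0.179), inside the range of the replication genes; after cyclic loess it was at 0.01. Spi1 was at 8.8, 8.65 and 8.84 uninduced and at 9.13, 9.04 and 9.05 induced, with induced A the highest array. Its change was 0.31 (SE 0.12, limma adjusted p = 0.152), 0.67 after cyclic loess (limma adjusted p = 0.0915) and 0.52 after quantile normalization (limma adjusted p = 0.101). After median centring it was 0.17 (limma adjusted p = 0.356), so Spi1 passed the threshold in none of these settings.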

How the data were processed

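Deposited by the authors were log2 expression values of 41345 transcript clusters on 6 arrays; the scale was read from the range of 2.86 to 14.03. Partek and mm10 are named per the submitters' processing notes. Version, background correction, normalization and summary method: not given in the sources used here. GEO's platform annotation, possibly outdated, gave 23521 clusters 1 symbol, 1814 several and 16010 none. Gene positions are RefSeq's on GRCm38.

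The 3 induced arrays were set against the 3 uninduced ones by limma 3.58.1 (R 4.3.3; lmFit, then eBayes; two-sided, without covariates), and p-values were adjusted over 22180 genes at a threshold of 0.05. The fit was tested on simulated data with independent noise for each gene and array. That simulation held no shifts of whole arrays, so it does not cover the array differences described above. Same-letter samples deviated together at r = -0.312, -0.278 and 0.416 for A, B and C, so the letters were not taken as pairs. Members and lists were chosen with earlier results of these data known. Values on all 6 arrays are given for the largest and smallest changes of each complex and for Mcm2, Pcna, Rrm1 and Rrm2; those of Orc1, Gmnn, Mcm5, Prim1, Pola1, Pole2, Tk1 and Tyms were added after their values were seen. Alternatives were other normalizations, filters at the 25th and 50th percentile of level, another variance model, array weights, the letter as a block, the mean of a gene's clusters and leaving out each array.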

Additional observations from a re-analysis of the deposited data

How the results depend on the processing

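No alternative called a member higher. The members called lower numbered 0 as reported and 30 with array weights (of 5681 lower and 5825 higher among all genes). Those weights were 4.6 for uninduced C, 3.46 for induced C and 0.309 to 0.932 for the other arrays, so that fit rests mostly on the C samples. Leaving out each array called 0 to 21 members lower, 21 without induced A. The letter as a replicate block called none, with 22 members at an unadjusted p under 0.05 and a lowest limma adjusted p of 0.0728; Samhd1 then had 0.0164. Members lower at an unadjusted p under 0.05 numbered 9 after quantile normalization and 6 after cyclic loess, against 23. Leaving out each array gave 2 to 33 (2 without uninduced B, 4 without induced B or C, 33 without induced A). The share of all genes was 11.9% after quantile normalization, 8.66% after cyclic loess and 15.6% with the replicate block. It was 8.3% without uninduced B, 9.21% without induced B, 8.72% without induced C and 24.2% without induced A, against 16.9% as reported. After cyclic loess 28 members were below 0. Cyclic loess of 5 arrays without induced A was chosen after seeing the data. It gave 1 call, 8 lower at an unadjusted p under 0.05 and 29 below 0, against 2.31%, 11.8% and 49.7% of all genes. In those 2 loess settings, in that order, the median was -0.0834 and -0.0879 over the members, 0.081 and 0.052 for the helicase, -0.0952 and -0.142 for the polymerases, 0.0683 and 0.141 for nucleotide supply and 0.0106 and -0.0258 for chromatin. Quantile normalization gave nucleotide supply -0.078 and chromatin -0.121. Licensing stayed between -0.242 and -0.599 in every setting run. Genes above 0 in both loess settings were Mcm2 (0.139 and 0.108), Mcm4 (0.0954 and 0.109), Mcm5 (0.188 and 0.219), Mcm6 (0.081 and 0.128), Mcm10 (0.107 and 0.052), Cdc45 (0.0762 and 0.0231), Gins3 (0.29 and 0.272), Pola1 (0.112 and 0.216), Pold1 (0.125 and 0.155), Pcna (0.0359 and 0.092), Rrm2 (0.0683 and 0.141), Tyms (0.17 and 0.18), Tk1 (0.107 and 0.17), Rad51ap1 (0.0821 and 0.0803), Dtl (0.104 and 0.141), Chaf1b (0.0106 and 0.0472), Dnmt1 (0.218 and 0.235) and Atad2 (0.0725 and 0.0967); Slbp was at 0.0269 in the first only. Quantile normalization put Mcm5 at 0.0483, Gins3 at 0.151, Tyms at 0.0363 and Dnmt1 at 0.0823, and array weights Gins3 at 0.0932. Leaving out each array gave Mcm5 -0.207 to 0.0359 and Gins3 -0.186 to 0.121. The cause of these shifts was not tested. Over all genes the calls, 232 lower and 83 higher as reported, were 118 and 83 after cyclic loess, 153 and 46 after median centring, 425 and 174 with the replicate block, 337 and 75 among the brighter 11090 genes, 3535 and 1998 without induced A and 47 to 93 lower when 1 of the other arrays was left out. The number of arrays limits the precision, and Orc1, Rfc3, Msh6, Gmnn, Gins1, Hells, Fen1, Ung, Exo1 and Clspn were not above background on induced B and C. Array weights gave repair -0.152.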
